A study of Homo sapiens with 6 samples.

Results

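The genes described here are 39 immediate early and MAPK feedback genes, taken as a named list of 39 of the 18249 genes in the expression table of TE-10, a human esophageal squamous carcinoma line. All 39 were found in the table, 33 reached 1 in 1 or more libraries and were tested, and 27 reached 5. Immediate early genes are switched on by growth factors and stress without new protein synthesis. The kinases of the mitogen-activated protein kinase (MAPK) cascades, ERK, JNK and p38, act on SRF, ternary complex factors and CREB at their promoters. Their mRNAs are short-lived, and several of their products, the DUSP phosphatases and Sprouty proteins among them, feed back to dampen the cascade. N6-methyladenosine (m6A) is written on mRNA by a complex whose catalytic subunit is METTL3, and it is known to affect mRNA decay.

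RNA-seq was made from 2 TE-10 libraries with a stable shRNA knockdown of METTL3, titled with hairpin numbers 1 and 2, and from 1 control library of TE-10 cells with normal METTL3. In addition, m6A was mapped in TE-10 cells with normal METTL3 from 1 input library and 2 immunoprecipitated libraries made with differently numbered antibodies of 1 supplier. The question, as the series title and design state it, is which genes differ once METTL3 is knocked down. Whether a knockdown line is a single clone, and whether libraries came from separate cultures, is not given in the sources used here. P-values and SDs reflect the spread of the 2 knockdown libraries alone. That spread can hold hairpin, culture and technical differences, which cannot be told apart. It also holds the differences in cell type markers between the knockdown libraries that are given below.

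METTL3 itself was at 8.35 in knockdown 1, 4.99 in knockdown 2 and 20.81 in the control. All values are the deposited expression values, whose unit is not stated, so a gene's level is read between libraries, and it is not known whether sums over a list or a ranking of genes by level allow for gene length. The squamous markers were present in every library, with summed values of 4565.56 in knockdown 1, 2858.31 in knockdown 2 and 4711.04 in the control. Knockdown 2 stood apart. Of 8 markers of kidney and embryonic kidney lines, 5 were tested and 4 were at least 1.5-fold higher there, and the list summed to 11.56 in knockdown 1, 242.85 in knockdown 2 and 10.64 in the control. CDKN2A, the largest part of the sum in knockdown 2, was at 0 in knockdown 1, 144.68 in knockdown 2 and 0.04 in the control. HOXB9 was at 0.35, 53.12 and 0.03 in the same order, and IRS4 at 0.04, 23.56 and 0.05. HOXD13, present in all 3 libraries, was at 7.64, 16.07 and 6.38. PAX8 did not follow, at 3.51, 3.66 and 4.11, and LHX1, WT1 and PAX2 were too low to be tested (0.29, 0.69 and 0.78 in knockdown 2). Of 9 fibroblast and mesenchyme markers 3 were tested and 1, VIM, was at least 1.5-fold higher in knockdown 2. The list summed to 108.84, 327.46 and 103.11, most of it VIM (88.05, 311.17 and 87.02). COL1A1 (3.6, 3.59 and 3.34) and TWIST1 (17.03, 11.61 and 12.48) did not follow VIM, and DCN, LUM and COL3A1 were at 0.03 or lower in each library. Values and counts past 1.5-fold are therefore given for each knockdown library alone, while limma and the means of the knockdowns take both together. In bulk libraries, fewer cells of a type and less RNA per cell cannot be told apart.

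In knockdown 2 the ERK feedback inhibitors DUSP6, DUSP4, SPRY4 and SPRY2, IER3, MAFF and the Fos-related factors FOSL1 and FOSL2 were lower than in the control, whereas JUN and DUSP1 were higher. In knockdown 1 the genes lower in knockdown 2 had log2 changes between -0.47 and 0.23. Changes are differences of log2(value + 1), which understate the change of low genes, and a gene was counted when it differed at least 1.5-fold on that scale. In knockdown 2, 8 of the 33 tested genes (24.2%) were lower, against 4.86% of all 12375 genes tested, and 2 (6.06%) were higher, against 8.7%. In knockdown 1, 1 gene (3.03%) was lower, against 2.53% of all genes, and 2 (6.06%) were higher, against 1.79%. Restricted to genes with a mean of at least 5, 6 of 23 (26.1%) were lower in knockdown 2, against 4.84% of 8258 genes, and 1 (4.35%) was higher, against 5%. The genes were chosen with earlier results of these data known. Shares set against all genes, here and below, are therefore descriptions and not tests. KLF2 and NR4A2 passed the filter through 1 library each, and over all 39 genes without the filter the counts were the same. The 8 lower genes of knockdown 2 were DUSP6, IER3, SPRY4, DUSP4, FOSL1, MAFF, SPRY2 and FOSL2. FOSL2, at -0.59, was the nearest to the threshold from within, and JUND, at 0.57, from outside.

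**Figure D1:**
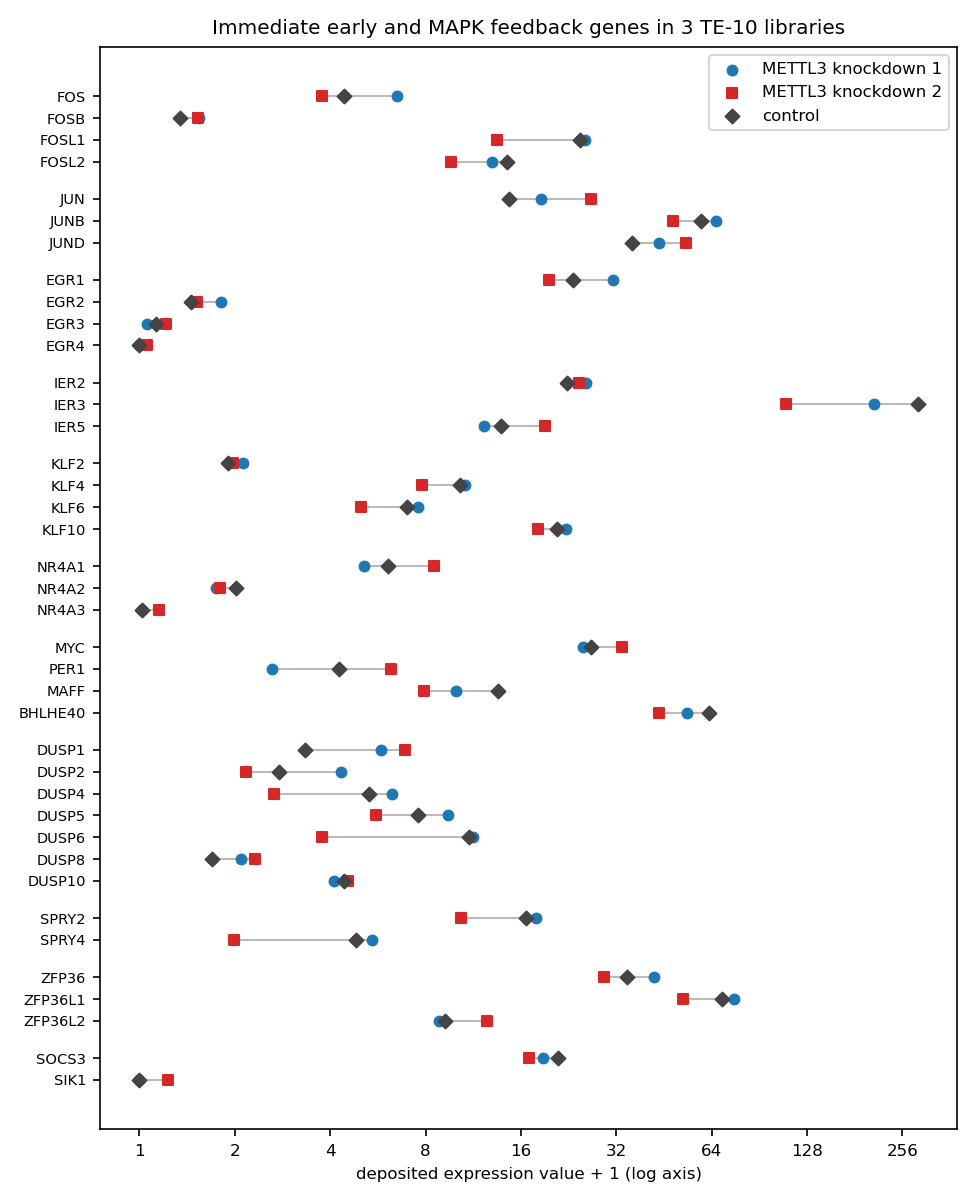
Deposited expression value plus 1 (log axis, unit not stated) of each of the 39 genes in METTL3 knockdown 1, METTL3 knockdown 2 and the control, 1 point per library, grouped by gene family. DUSP6 and SPRY4 stand to the left in knockdown 2 alone (2.77 and 0.99), and IER3 is lower in both knockdowns (206.56 and 108.97) than in the control (285.74).

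The median change of the 33 genes was 0.10 in knockdown 1 and -0.25 in knockdown 2, beside -0.01 and 0.00 over all genes tested. Knockdown 1 had the highest value of the 3 libraries for 17 of the 33 genes (51.5%), against 29.1% of all genes. Knockdown 2 had the lowest for 20 (60.6%), against 36.9%. The control had the highest value for 6 (18.2%), against 30.4% of all genes, and the lowest for 6 (18.2%), against 28%. Both knockdowns on the same side of the 1 control library was thus common among all genes, and less so among these. The 2 knockdowns are compared with the same control library. In limma, which takes its spread from the 2 knockdown libraries with 1 residual degree of freedom, 0 of the 33 genes passed an adjusted p of 0.05, against 0% of all genes. At an unadjusted p under 0.05, 1 of the 33 genes (3.03%) was counted, DUSP1, against 1.31% of all genes. The spread of each gene was moderated towards a trend over all genes, which gave 5.94 degrees of freedom in total. The SE or p-value of a gene is therefore not its own spread alone. A lack of calls in this design does not show that the genes did not differ.

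**Figure D2:**
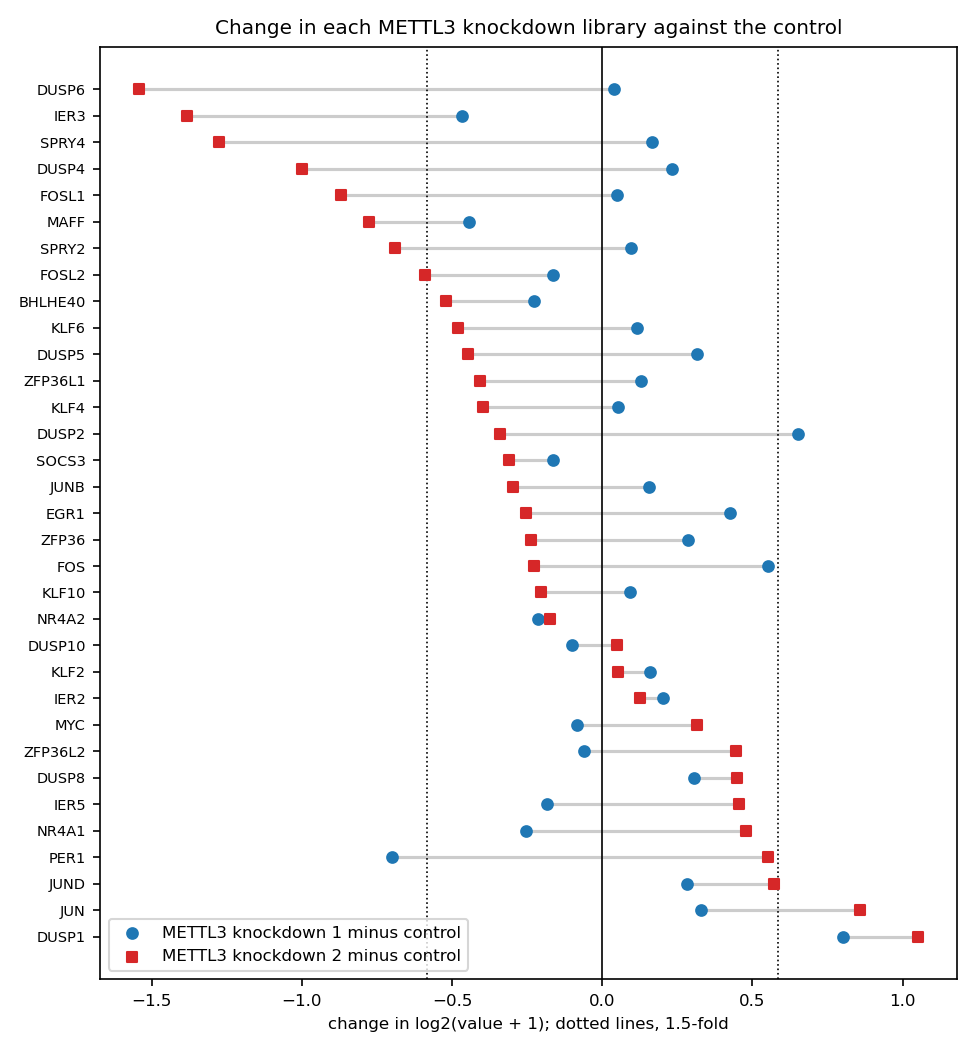
Change in log2(value + 1) of the 33 tested genes in knockdown 1 and knockdown 2, each minus the control, ordered by knockdown 2. Dotted lines mark 1.5-fold; DUSP6, IER3 and SPRY4 lie lowest in knockdown 2 (-1.54, -1.38 and -1.28), and DUSP1 highest (1.05), with knockdown 1 at 0.80 for DUSP1.

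Among the dual-specificity phosphatases, which remove phosphate from MAP kinases, the members did not move as 1 group. DUSP6, the cytoplasmic phosphatase of ERK, was at 10.27 in knockdown 1, 2.77 in knockdown 2 and 9.97 in the control. DUSP4, a nuclear phosphatase, was at 5.25, 1.66 and 4.32 in the same order. In both genes knockdown 1 was above the control, and knockdown 2 was at 0.278 of the control for DUSP6 and 0.384 for DUSP4. The change of DUSP6 in knockdown 2 ranked 24 from the lowest among 12375 genes. DUSP5, a nuclear phosphatase of ERK, was at 8.45 in knockdown 1, 4.58 in knockdown 2 and 6.6 in the control, so the control lay between the knockdowns. DUSP2, also nuclear, had the same order (3.32, 1.17 and 1.75).

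DUSP1, a nuclear phosphatase of p38, JNK and ERK, went the other way. Its values were 4.78 in knockdown 1, 5.88 in knockdown 2 and 2.32 in the control, so both knockdowns were above the 1 control library. The mean of the knockdowns was 5.33 ± 0.778 (SD, n = 2) against the control (n = 1), a log2 change of 0.93 (SE 0.285), with an adjusted p = 1 in limma. DUSP8, a phosphatase of JNK and p38, was also higher in both (1.1 and 1.32, control 0.7). On the log2(value + 1) scale its changes of 0.30 and 0.45 stayed under 1.5-fold. The plain ratios of these low values to the control were 1.57 and 1.89. DUSP10, another JNK and p38 phosphatase, was at 3.12, 3.57 and 3.42, with log2 changes of -0.10 and 0.05.

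The Sprouty proteins act upstream of ERK, where they inhibit signalling from receptor tyrosine kinases. SPRY4 was at 4.41 in knockdown 1, 0.99 in knockdown 2 and 3.82 in the control. SPRY2 was at 16.82, 9.32 and 15.66. Both were marginally higher in knockdown 1 and lower in knockdown 2, at 0.259 of the control for SPRY4 and 0.595 for SPRY2. SPRY1, a Sprouty gene outside the described set, was not lower, at 3.64 in knockdown 1, 3.51 in knockdown 2 and 3.4 in the control.

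The squamous markers were lower in knockdown 2 too. All 10 were below the control there, at ratios from 0.432 (DSG3) to 0.766 (CDH1) with a median of 0.632, and 8 of 10 were below it in knockdown 1, where the median was 0.921. Of the genes described here, DUSP6, SPRY4, DUSP4 and IER3 had a ratio in knockdown 2 below the lowest of these markers, with SPRY4 and DUSP4 at low values there (0.99 and 1.66). FOSL1 (0.529), MAFF (0.55), SPRY2 and FOSL2 (0.639) lay within the markers' range. In knockdown 1, IER3, NR4A2, PER1 and MAFF had a ratio below the lowest marker of that library, TP63 at 0.738. The part of the kidney-line, VIM and squamous marker shifts in these results was not tested.

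AP-1 is a dimer of Fos and Jun proteins that binds DNA at promoters and enhancers. Among the Fos genes, FOSL1, which ERK signalling is known to sustain in squamous carcinoma cells, was at 24.46 in knockdown 1, 12.47 in knockdown 2 and 23.59 in the control. FOSL2 was at 11.92, 8.62 and 13.48, lower in both knockdowns. FOS, the founding member, was at 5.49, 2.78 and 3.43, so it was higher in knockdown 1 and lower in knockdown 2. FOSB did not reach 1 in any library (0.54, 0.53 and 0.34).

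The Jun genes were ordered differently. JUN was at 17.47 in knockdown 1, 25.63 in knockdown 2 and 13.7 in the control. JUND was at 42.49, 52.16 and 34.8. For both genes the control was the lowest library and knockdown 2 the highest, with log2 changes of 0.33 and 0.86 for JUN and 0.28 and 0.57 for JUND. In limma the combined log2 change was 0.59 (SE 0.30) for JUN and 0.43 (SE 0.261) for JUND, each with an adjusted p = 1. JUNB, at 64.92, 47.23 and 58.22, followed the order of FOS, with the control in between.

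EGR1, the zinc finger factor that ERK induces through serum response elements, was at 30.3 in knockdown 1, 18.55 in knockdown 2 and 22.31 in the control. Its change was 0.43 in knockdown 1 and -0.25 in knockdown 2, on either side of the control and under 1.5-fold against it. EGR2 was under 1 in each library (0.81, 0.52 and 0.46), as were EGR3 (0.06, 0.21 and 0.13) and EGR4, which was listed at 0 in knockdown 1 and the control and at 0.06 in knockdown 2. The promoter windows of EGR1 and EGR2 were the only ones among the described genes with an SRE, the CArG box of CC and GG around a run of A or T that SRF binds. They are shown because they carry the element through which this family is classically induced. The sequences are from RefSeq, build GRCh38.p14, 30 bases each with the CArG box in capitals.
EGR1 (chr5:138465364-138465393, plus strand): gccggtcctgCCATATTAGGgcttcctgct
EGR1 (chr5:138465386-138465415, plus strand): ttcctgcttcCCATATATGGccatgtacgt
EGR2 (chr10:62816418-62816447, minus strand): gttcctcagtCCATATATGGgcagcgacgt

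The boxes begin 105 and 83 bases before the annotated start of EGR1 and 71 bases before a start of EGR2. Promoter windows reach from 250 bases before to 50 after a start, and 30 of the 39 genes had at least 1, of 27305 genes with a window. On both strands, the CArG box was in windows of 2 of the 30 genes (6.67%), against 1.6% of all. The AP-1 site TGACTCA was in 1 (3.33%, FOSL2), against 6.05%, and the EGR site GCGTGGGCG in 0, against 0.96%. The cAMP response element (CRE) TGACGTCA was in 5 (16.7%), against 2.25%. None of these 4 motifs holds another. A match is a description of letters in the window only, and a lack of one says only that these letters are not in it.

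The 5 genes with a CRE were DUSP1, DUSP8, JUND, MAFF and ZFP36L1. They are shown because DUSP1, DUSP8 and JUND were higher in both knockdowns while MAFF was lower in both, with the same 8 letters, in capitals, in each. DUSP8 holds another CRE that is not shown. Here too each line is a RefSeq window of GRCh38.p14.
DUSP1 (chr5:172771302-172771331, minus strand): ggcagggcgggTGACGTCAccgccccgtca
DUSP8 (chr11:1572371-1572400, minus strand): ccgggctccgcTGACGTCAcctgcccccga
JUND (chr19:18281804-18281833, minus strand): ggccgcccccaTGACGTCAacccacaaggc
MAFF (chr22:38201929-38201958, plus strand): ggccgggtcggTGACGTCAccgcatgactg
ZFP36L1 (chr14:68793450-68793479, minus strand): agtggaatgagTGACGTCAcagccgcgctc

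The IER genes are small early response genes. IER3, a stress-inducible gene whose product prolongs ERK phosphorylation, was at 206.56 in knockdown 1, 108.97 in knockdown 2 and 285.74 in the control. The knockdowns, at 158 ± 69.0 (SD, n = 2), lay below the control (n = 1), with a log2 change of -0.92 (SE 0.413) and an adjusted p = 1 in limma. Its change in knockdown 2 ranked 38 from the lowest of all genes tested, and that in knockdown 1 ranked 617. IER2, a nuclear protein, was at 24.67, 23.34 and 21.33, 0.20 and 0.12 above the control on the log2 scale. IER5, which regulates the heat shock factor HSF1, was at 11.21, 18.03 and 12.88, higher in knockdown 2 alone.

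MAFF, a small Maf protein without a transactivation domain, was lower in both knockdowns, at 8.97 in knockdown 1, 6.91 in knockdown 2 and 12.56 in the control. BHLHE40, a repressor of clock genes, was at 52.62, 42.72 and 61.72. Both lay below the control in each library, with log2 changes of -0.44 and -0.78 for MAFF and -0.23 and -0.52 for BHLHE40. PER1, a repressor of the circadian clock, went opposite ways, at 1.62, 5.24 and 3.26. It was the only one of the genes at least 1.5-fold lower in knockdown 1, where DUSP1 and DUSP2 were the ones higher. MYC, a driver of growth, was at 24.19, 32.24 and 25.72, a log2 change of -0.09 and 0.32.

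The Krüppel-like factors and the NR4A orphan nuclear receptors were past 1.5-fold against the control in neither knockdown, or too low to be tested. KLF4, a factor of epithelial differentiation, was at 9.66 in knockdown 1, 6.8 in knockdown 2 and 9.27 in the control. KLF6 was at 6.6, 4.02 and 6.01 and KLF10, induced by TGF-beta, at 21.22, 17.1 and 19.84. All of these had the control between the knockdowns, with knockdown 2 lowest. KLF2 was at 1.13, 0.98 and 0.91. NR4A1 had the opposite order, at 4.11, 7.49 and 5.1, while NR4A2 (0.74, 0.79 and 1.02) and NR4A3 (0.02, 0.15 and 0.02) were near or under 1.

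The ZFP36 proteins bind AU-rich elements of short-lived mRNAs and speed their decay. ZFP36 (tristetraprolin) was at 41.17 in knockdown 1, 28.31 in knockdown 2 and 33.57 in the control. ZFP36L1 was at 74.2, 50.91 and 67.77, in the same order, whereas ZFP36L2 was at 7.83, 11.53 and 8.21, highest in knockdown 2. SOCS3, an inhibitor of cytokine receptor signalling, was at 17.74, 15.95 and 20.02. SIK1, a kinase that restrains CREB coactivators, was listed at 0 in knockdown 1 and the control and at 0.23 in knockdown 2. Its value is uncertain, since a near-identical copy of the gene exists.

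Set directly against each other, knockdown 2 was at least 1.5-fold lower than knockdown 1 for 11 of the 33 genes (33.3%), against 5.2% of all genes tested, and higher for 3 (9.09%), against 9.84%. The 11 lower genes were SPRY4, DUSP6, DUSP4, DUSP2, FOSL1, IER3, SPRY2, FOS, DUSP5, EGR1 and KLF6, and the higher ones PER1, NR4A1 and IER5. SPRY4 had a log2 difference of -1.44, DUSP6 of -1.58 and PER1 of 1.25. With 1 library on each side these are differences between libraries, with no test.

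The rest of the pathway was read from lists of other genes, also chosen with earlier results of these data known. Their counts stand beside the shares of all genes tested given above. These were 4.86% lower and 8.7% higher in knockdown 2 and 2.53% lower and 1.79% higher in knockdown 1. In the ERK cascade, 0 of 25 genes were past 1.5-fold in knockdown 1, and in knockdown 2 3 were lower and 0 higher, and the medians were -0.13 in knockdown 1 and -0.07 in knockdown 2. The 3 were EGFR (14.32 in knockdown 1, 6.42 in knockdown 2 and 20.87 in the control), MET (17.74, 11.73 and 23.39) and the adaptor SHC1 (124.73, 79.71 and 159.57). MAPK3, which encodes the kinase ERK1, differed by under 1.5-fold, at 101.32 in knockdown 1, 108.53 in knockdown 2 and 113.83 in the control. In the JNK and p38 cascades, 1 of 13 genes was higher in knockdown 2 and 0 were lower, with 0 past 1.5-fold in knockdown 1 and medians of -0.04 and -0.11. MAPK14, which encodes p38 alpha, was at 14.82, 13.94 and 17.26.

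Among 10 SRF, ternary complex and CREB factors, only ELK3 was past 1.5-fold, and only in knockdown 2. It was at 11.99 in knockdown 1, 11.27 in knockdown 2 and 18.45 in the control, with log2 changes of -0.58 and -0.66. The medians of the list were -0.13 in knockdown 1 and -0.14 in knockdown 2. SRF was at 31.1, 25.21 and 27.61, with the control in between. Of 22 other ERK output and feedback genes, 7 were lower in knockdown 2 and 1 was higher, with a median of -0.44, and 0 were past 1.5-fold in knockdown 1, with a median of -0.00. PHLDA1 was at 61.23, 19.22 and 63.22, and the ETS factors ETV4 at 31.7, 11.76 and 35.58 and ETV5 at 16.74, 6.45 and 19.5. ERRFI1, a feedback inhibitor of EGFR, was at 28.86, 19.95 and 32.64. Of 25 other early response genes, 3 were higher and 3 lower in knockdown 2, and 1 higher and 2 lower in knockdown 1. The list had a median of 0.02 (knockdown 1) and -0.13 (knockdown 2). RHOB, a small GTPase, was higher in both (22.24, 30.57 and 14.73), and CEBPD was lower mainly in knockdown 1 (32.82, 60.36 and 63.25). No gene of these 5 lists passed limma's adjusted p of 0.05; ELK3 and RHOB had an unadjusted p under 0.05.

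**Figure D3:**
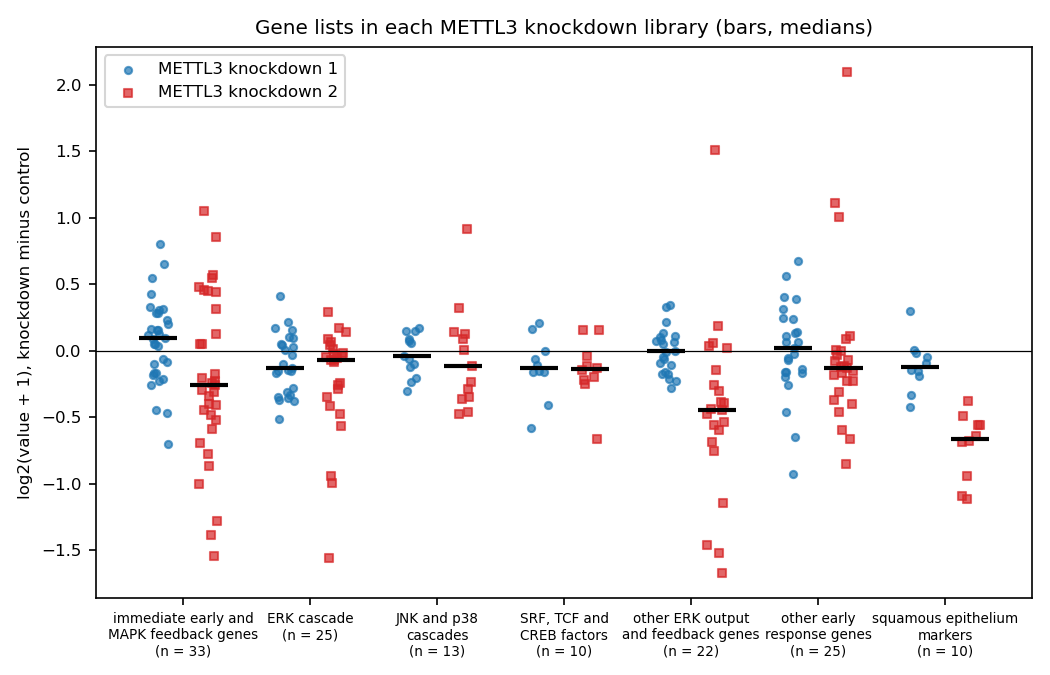
Change in log2(value + 1) of single genes, knockdown minus control, for the immediate early and MAPK feedback genes, 5 lists of related genes and the squamous markers, with knockdown 1 and knockdown 2 side by side and bars at the medians. The median of the other ERK output and feedback genes was -0.44 in knockdown 2 and that of the squamous markers -0.66.

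In TE-10 cells with normal METTL3, most of these genes carried an m6A peak in an exon or untranslated region (UTR). The share was 29 of 33 tested genes, 87.9% with a 95% Wilson interval of 72.7% to 95.2%, against 42.4% (41.6% to 43.3%) of all 12375 genes tested. Over all 39 genes it was 32, or 82.1% (67.3% to 91.0%), against 31.5% of the 18249 listed. When genes were split by mean value into 4 bins of equal size, all 10 of the genes in bin 2 had such a peak, against 49.2% of all genes there, and 8 of 9 in bin 3, against 46.8%. In bin 4, the highest, it was 7 of 7, against 33.0%. In the lowest bin it was 4 of 7, or 57.1%, against 40.8%, which lay inside the Wilson interval of the 57.1%. Intervals cover counting error only. The list holds peaks without score or enrichment, so peaks are given by place and not by strength, and a gene without a peak cannot be called unmethylated.

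**Figure D4:**
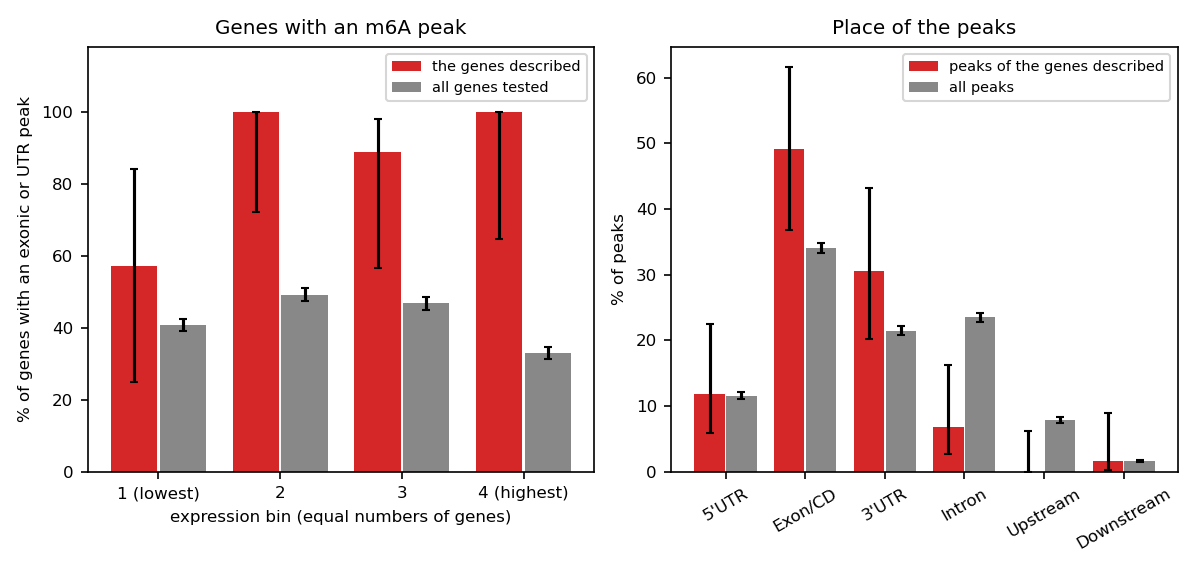
Left, percent of genes with an exonic or UTR m6A peak by bin of mean expression, for the described genes and for all genes tested. Right, percent of peaks in each annotated class, for the 59 peaks of the described genes and all 15940 peaks; error bars are 95% Wilson intervals, and exon peaks make up 49.2% and 34.1%.

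The 39 genes held 59 peaks. Of these 29 (49.2%, 36.8% to 61.6%) were in the exon class, against 34.1% of all 15940 peaks, and 18 (30.5%, 20.3% to 43.1%) in 3′ UTRs, against 21.5%. The 7 peaks in 5′ UTRs (11.9%) were close to the 11.6% of all peaks. Only 4 (6.78%, 2.67% to 16.2%) were intronic, against 23.5%, and 0 were upstream, with a Wilson interval up to 6.11%, against 7.84%. These intervals treat each peak as a separate draw, although some genes held several. Exonic and UTR peaks lay a median of 2514 bases from the annotated start along the genome, against 12502.5 for all genes, and were wider, with a median of 446.5 against 331 bases. The number per gene with a peak was 1.69, against 1.56.

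The places of the peaks varied from gene to gene, also within families. JUN, IER5, DUSP1, DUSP4 and MAFF had a peak in both UTRs, and EGR1 and MYC in the 5′ UTR and the exon class. KLF4 had the most, 4, of which 3 were in the exon class and 1 in the 3′ UTR. SPRY2, SPRY4 and the ZFP36 genes each had an exon-class peak, and SPRY4 (as well as ZFP36L2) a 3′ UTR peak besides. IER2, IER3, KLF2, EGR3 and SOCS3 had exonic or UTR peaks only in the 3′ UTR, with FOSL2, whose peak of 1445 bases there was the widest among these genes. No exonic or UTR peak was listed for FOSL1 (1 intronic peak), PER1 (1 downstream peak), FOSB, EGR4, DUSP2, DUSP8 and NR4A3; FOSB, EGR4 and NR4A3 were also too low to be tested. EGR2, EGR3 and SIK1 were equally low in the RNA-seq table, and had 2, 1 and 1 such peaks.

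**Figure D5:**
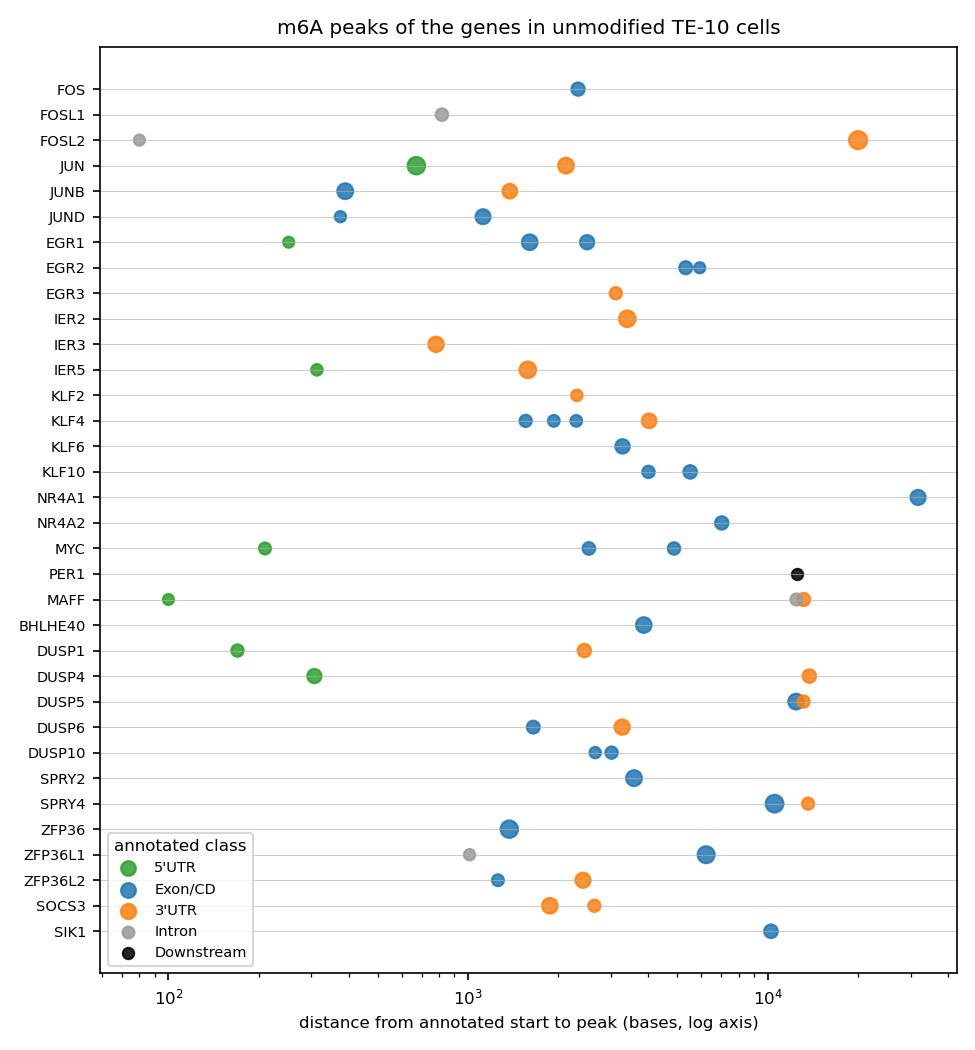
Distance of each m6A peak from the annotated start of its gene (bases, log axis), for the 34 genes with any peak, coloured by annotated class, with point size growing with peak width. DUSP1, DUSP4, IER5, JUN and MAFF have a 5′ UTR and a 3′ UTR peak each, and KLF4 has 4 peaks.

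Peak coordinates are as the file gives them. The file itself states no build. The submitters' processing notes name hg38, but the coordinates do not match GRCh38, where 0 of the 59 peaks lay within the span of their gene. In those coordinates the peak of IER3 was at chr6:30711170-30711920, in the 3′ UTR. DUSP6 had a 3′ UTR peak at chr12:89742662-89743394 and an exon peak at chr12:89744458-89744833. The exon peak of SPRY4 at chr5:141693417-141694735 spanned 1319 bases, and the 5′ UTR peak of JUN at chr1:59248484-59249742 spanned 1259. Peaks stood beside changes in either direction. Of the 8 genes lower in knockdown 2, FOSL1 was the only one without an exonic or UTR peak, and JUN and DUSP1, higher there, had 2 each. No immunoprecipitation of knockdown cells was analysed here, so whether these peaks depend on METTL3 was not tested.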

How the data were processed

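The authors deposited 1 expression table with a signal per gene and library, never negative and with 2 decimals, whose unit and scaling are not stated in the file header; columns sum to 617840 in knockdown 1, 627152 in knockdown 2 and 608291 in the control. Depth is therefore unknown, and count tests could not be used. TopHat2, HTSeq, MACS2 and build hg38 are named per the submitters' processing notes. The deposited peak list gives position, class and distance (other values) but no score, per the file headers.

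The table was transformed to log2(value + 1), and genes that reached 1 in any library were tested. Knockdown was compared with control in limma 3.58.1 (R 4.3.3), with a mean-variance trend and Benjamini-Hochberg adjustment over 12375 genes, and the script was tested on simulated data. With 1 control, the smallest exact permutation p would be 0.333. Older symbols were matched to current ones, and 25 date-like symbols left unnamed. Python 3.11.15, scipy 1.17.1 and matplotlib 3.10.9 were used. The members, gene lists and marker lists were chosen with earlier results of these data known. Members at 5 or more in at least 1 library are described in full. Of each other list the up to 4 genes with the largest mean change, a mean of at least 5 and the same side of the control in both knockdowns are named, and other genes of the lists were chosen after their values were seen.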

Additional observations from a re-analysis of the deposited data

How the results depend on the processing

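No gene passed limma's adjusted p of 0.05 under any of the 6 alternatives run (pseudocount of 0.1, no filter, a mean of at least 5, median-of-ratios scaling, quantile normalization and no trend); 123 to 444 had an unadjusted p under 0.05. The median change of the genes was -0.07, between -0.07 and 0.00 under these, and ranged from -0.25 to 0.10 when a knockdown library was left out. No paired analysis was possible because the control has 1 library. With a pseudocount of 0.1, 4 genes were higher in knockdown 1, with DUSP8 and FOS gained. In knockdown 2 it was 4, with DUSP8 and PER1 gained. With a mean of at least 5, knockdown 1 had 0 higher and 0 lower, knockdown 2 had 1 higher, and 7 were lower in knockdown 2 than in knockdown 1. At 2-fold, knockdown 1 had 0 higher and 0 lower, knockdown 2 had 1 higher and 4 lower (DUSP6, IER3, SPRY4 and DUSP4), and against knockdown 1 it had 1 higher and 3 lower. The 8 lower genes of knockdown 2 were the same 8 under both scalings, the pseudocount of 0.1 and no filter. The share with a peak was 54.5% for UTR classes only, against 25.3% of all genes tested. It was 51.5% for at least 2 peaks, against 16.3%, and 95.7% with a mean of at least 5, against 42.3% of all such genes. Depth, unknown here, limits what can be said of genes under 1.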

Other observations

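Some genes of the early response and MAPK lists were higher in knockdown 2, chosen here after their values were seen. ATF3, a stress-induced factor, was at 1.05 in knockdown 1, 6.05 in knockdown 2 and 0.65 in the control. DUSP9, a phosphatase of ERK, was at 1.59, 5.73 and 1.36, against the direction of DUSP6 and DUSP4. MAP2K6, a kinase that activates p38, was at 2.35, 5 and 2.18, and KLF9 at 0.33, 2.96 and 0.83. On the log2(value + 1) scale knockdown 1 was within 0.5 of the control in each case. That scale understates differences at the low values of ATF3 and KLF9 in knockdown 1 and the control. Knockdown 2 is the library with CDKN2A at 144.68. The endothelin gene EDN1 was the only gene of these lists at least 1.5-fold higher in knockdown 1 on that scale (5.55, 2.69 and 3.1).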
